A study of Homo sapiens with 6 samples.

Results

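The neuronal genes repressed by REST with its corepressor CoREST were followed in a breast cancer line depleted of LSD1. The set held 34 gene symbols, REST itself and 33 neuronal targets known from the general literature, chosen by name out of the 23368 symbols of the count table. All 34 were in the table. The cells were MDA-MB231, a widely used line derived from a triple-negative breast cancer, and RNA-seq counts were available for 6 libraries in 3 groups of 2. The groups were cells transfected with siL1, an siRNA against LSD1, cells transfected with siL2, a second siRNA against LSD1, and cells transfected with a control siRNA (siControl). All 3 groups shared the line, the serum-containing medium and the transfection reagent, and no allele was altered in any of them. Whether the libraries of a group stem from separate cultures is not stated in the labels, so each p-value reflects the spread between libraries, which may be technical.

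REST is a zinc-finger repressor that binds a long DNA element, RE1, near neuronal genes and keeps them silent in cells that are not neurons. One end of the protein recruits the Sin3 complex and the other recruits CoREST, which is encoded by RCOR1 and carries the histone demethylase LSD1 (KDM1A) together with the deacetylases HDAC1 and HDAC2. LSD1 takes methyl groups off lysine 4 of histone H3, a mark of active promoters. In epithelial and other non-neuronal cells most RE1 genes are kept at very low levels.

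The libraries held 22047738 to 26765079 counts, and a level of 3 counts, which a count of 0 still allows, equals 0.112 to 0.136 CPM (counts scaled to library size). This limit covers counting error only. The targeted gene KDM1A stood at 27.7 and 28.3 CPM with siL1, at 17.3 and 18.1 CPM with siL2, and at 158 and 165 CPM in siControl. Among markers of the line, the mesenchymal gene VIM was at 3289 to 3706 CPM across the libraries. The luminal receptor genes ESR1 and PGR had no more than 2 counts in any, and the luminal gene TFF1 at most 1. Other luminal markers were expressed, ERBB2 at 46.6 to 59.8 CPM, GATA3 at 2.54 to 5.44 CPM and FOXA1 at 2.19 to 5.54 CPM. Of 10 neuron markers, 4 (DCX, ELAVL4, NEUROD1 and SLC17A6) were at 0 in all 6 libraries. The summed level of the 10 was 28.6 to 30.1 CPM with siL1, 24.3 to 27.9 CPM with siL2 and 23.2 to 24.8 CPM in siControl, carried by RBFOX3, GAD1 and MAP2. The oligodendrocyte gene MBP carried nearly all of the summed level of 6 glial markers, which was 32.6 to 35.9, 45.8 to 49.2 and 28.3 to 33.8 CPM in the same order of groups. The part of these markers in the results was not tested.

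Detection divided the set. Of the 34 members, 27 had at least 1 count in at least 1 library and 7 had none. REST and 15 targets, 16 in all, passed the filter on low counts and were tested, and 18 did not pass. Of these 18, 14 never exceeded 3 counts in any library, a limit that was not counted over all genes. Of all 23368 genes, 5745 had no count in any library and 10046 did not pass the filter. Detection of the members was not tested against that of all genes. A change is therefore measurable for fewer than all members, and the 16 are those already expressed in the line or raised above the filter. In bulk RNA, a change in the number of cells that express a gene and a change in RNA per cell cannot be told apart.

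With siL1, 6 of the 16 tested members rose and 3 fell, 56.25% in all, against 50.4% of the 13322 genes tested (24.7% higher and 25.7% lower). With siL2, 4 rose and 4 fell, 8 of 16 in all, against 45.8% of all genes (22.6% higher and 23.3% lower). Taken over both directions, these shares are close to those of all genes, so the counts are no result about the members as a group. The median log2 fold change of the 16 was 0.049 with siL1 and 0.013 with siL2, beside -0.014 and -0.0036 over all genes tested. Both comparisons use the same 2 siControl libraries. Calls are by edgeR's quasi-likelihood test at an adjusted p under 0.05. Without siControl replicate 2 the members that rose with siL1 numbered 3 in place of 6.

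**Figure D1:**
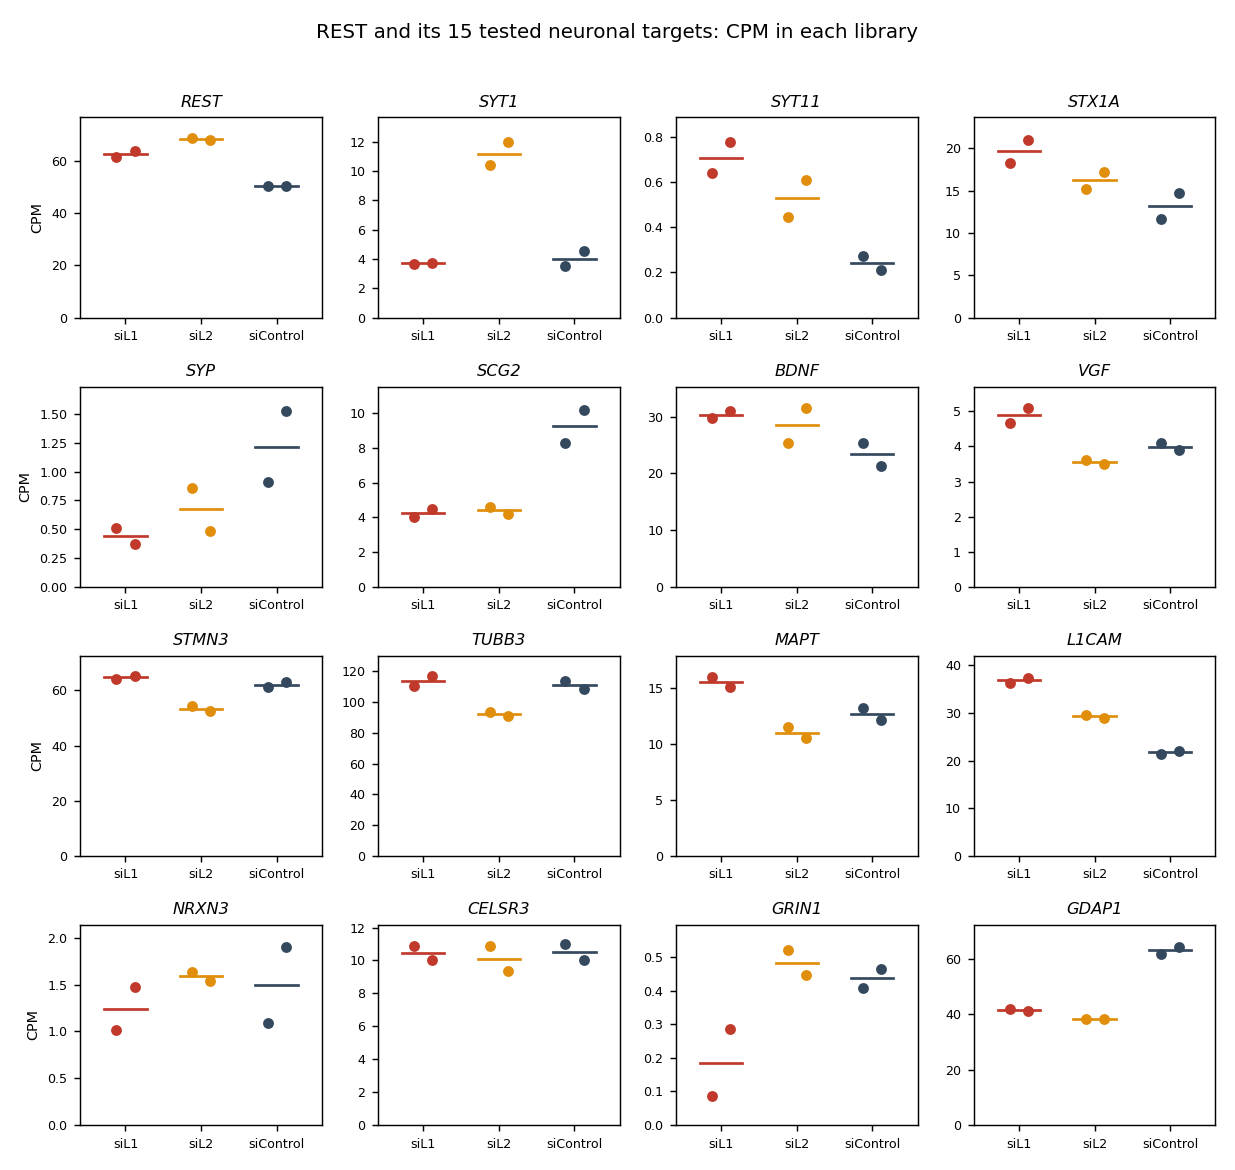
CPM of REST and the 15 tested targets in each of the 6 libraries (points) with the mean of each group (line), for siL1, siL2 and siControl. Each panel has its own linear axis from 0. SCG2 and GDAP1 lie lower with both LSD1 siRNAs, L1CAM and REST lie higher, and SYT1 is high only in the siL2 libraries.

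The repressor itself was higher with each LSD1 siRNA. REST stood at 61.7 and 63.8 CPM with siL1, 68.8 and 68.0 CPM with siL2, and 50.5 and 50.3 CPM in siControl. The groups did not overlap. REST rose with siL1 by 0.32 on the log2 scale (SE 0.0521, edgeR adjusted p = 0.000253) and by 0.44 with siL2 (SE 0.0515, edgeR adjusted p = 1.74e-05), a fold of 1.25 and 1.36. The difference between the siRNAs was 0.12 and did not pass the threshold (edgeR adjusted p = 0.0591).

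Genes of the synaptic vesicle and of vesicle fusion went in different directions. SYT1 encodes the calcium sensor that triggers neurotransmitter release. It had 3.65 and 3.76 CPM with siL1, 10.4 and 12.01 CPM with siL2, and 3.54 and 4.53 CPM in siControl. Both siL2 libraries stood well above the other 4, which overlapped among themselves. SYT1 rose 2.76-fold with siL2 (log2 fold change 1.47, SE 0.143, edgeR adjusted p = 3.8e-06), whereas the log2 fold change with siL1 was -0.13 (edgeR adjusted p = 0.570). The direct comparison of siL2 with siL1 gave a log2 difference of 1.59 (SE 0.144, edgeR adjusted p = 2.19e-06).

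STX1A encodes syntaxin 1A, the plasma membrane SNARE to which vesicles dock. It had 18.2 and 21.0 CPM with siL1, 15.1 and 17.2 CPM with siL2, and 11.6 and 14.8 CPM in siControl. Neither siRNA group overlapped siControl. In siL2 against siL1 the log2 difference was -0.28 (SE 0.116, edgeR adjusted p = 0.0633), near the threshold. A fit of only the groups compared gave an edgeR adjusted p of 0.0369. STX1A rose with siL1 (log2 fold change 0.57, SE 0.12, edgeR adjusted p = 0.00161), and had a log2 fold change of 0.29 with siL2 (SE 0.122, edgeR adjusted p = 0.0703). That second value passed the threshold without siL2 replicate 1 (edgeR adjusted p = 0.0402) and without siControl replicate 2 (0.0146).

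SYT11, a synaptotagmin that does not bind calcium, and SYP, which encodes the vesicle membrane protein synaptophysin, were close to the detection limit. SYT11 had 15 and 19 counts with siL1, 12 and 15 with siL2, and 6 and 5 in siControl. SYP had 12 and 9 counts with siL1, 23 and 12 with siL2, and 20 and 36 in siControl. SYT11 was above siControl in all 4 LSD1 siRNA libraries by CPM, and SYP was below it in all 4. With siL1 the log2 fold change was 1.54 for SYT11 (SE 0.434, edgeR adjusted p = 0.0102) and -1.47 for SYP (SE 0.403, edgeR adjusted p = 0.00841). With siL2 the values were 1.11 for SYT11 (edgeR adjusted p = 0.0658) and -0.85 for SYP (edgeR adjusted p = 0.0714). Without siL1 replicate 2 the siL1 calls ended, at edgeR adjusted p = 0.0654 for SYT11 and 0.0658 for SYP, and without siControl replicate 2 at 0.0848 and 0.121. The SYP value with siL2 passed without siL2 replicate 1 (edgeR adjusted p = 0.0405) and without siControl replicate 1 (0.0347).

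Among genes of secretory granules and secreted factors, SCG2 showed the clearest change and it was a decrease. SCG2 encodes secretogranin II, a granin packed into dense-core granules and cut into secretoneurin. It had 4.04 and 4.50 CPM with siL1, 4.61 and 4.22 CPM with siL2, and 8.31 and 10.2 CPM in siControl. All 4 LSD1 siRNA libraries were below both siControl libraries, at about the same level with either siRNA. SCG2 fell with siL1 by 1.12 on the log2 scale (SE 0.146, edgeR adjusted p = 3.87e-05) and by 1.07 with siL2 (SE 0.143, edgeR adjusted p = 5.51e-05). The siL2 and siL1 effects differed by 0.05 (SE 0.160, edgeR adjusted p = 0.821).

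BDNF encodes a neurotrophin, the ligand of the receptor TrkB, and moved the other way. It had 29.7 and 30.9 CPM with siL1, 25.4 and 31.6 CPM with siL2, and 25.3 and 21.4 CPM in siControl. The lower siL2 library was level with the higher siControl library. BDNF rose by 0.38 with siL1 (SE 0.105, edgeR adjusted p = 0.00902) and by 0.29 with siL2 (SE 0.105, edgeR adjusted p = 0.0398). Neither rise held without siControl replicate 2 (edgeR adjusted p = 0.0985 with siL1 and 0.298 with siL2). The siL1 rise also ended without siL1 replicate 2 (0.0522), and the siL2 rise without siL2 replicate 2 (0.378). The antisense gene BDNF-AS1, which overlaps BDNF and whose reads cannot be separated where strand was not used, had at most 3 counts in any library.

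VGF encodes a precursor of secreted neuropeptides. It had 4.67 and 5.11 CPM with siL1, 3.61 and 3.49 CPM with siL2, and 4.09 and 3.89 CPM in siControl. The siL1 libraries were above siControl and the siL2 libraries below it, but neither difference passed the threshold (log2 fold change 0.30 with siL1, edgeR adjusted p = 0.113, and -0.17 with siL2, edgeR adjusted p = 0.4001). Compared directly, siL2 gave less VGF than siL1 (log2 difference -0.46, SE 0.147, edgeR adjusted p = 0.0200). That call ended without siL1 replicate 2 (edgeR adjusted p = 0.119), siL2 replicate 1 (0.0640) or siL2 replicate 2 (0.0860).

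Each of the 3 tested genes of the neuronal cytoskeleton was lower with siL2 than with siL1, beside 23.7% of all genes tested. Of the other tested members, VGF and L1CAM were also lower and SYT1 was higher. Of 31 other neuronal genes tested, 15 were lower and 1 was higher, so the lean was not particular to cytoskeleton genes. The set held 9 cytoskeleton genes, of which 6 did not pass the filter. TUBB3, the neuron-enriched class III beta-tubulin, had 111 and 117 CPM with siL1, 93.5 and 90.8 CPM with siL2, and 114 and 108 CPM in siControl. STMN3, a tubulin-binding protein of the stathmin family, had 64.3 and 65.4 CPM with siL1, 54.4 and 52.4 CPM with siL2, and 61.1 and 62.9 CPM in siControl. MAPT, which encodes the microtubule protein tau, had 16.0 and 15.1 CPM with siL1, 11.5 and 10.5 CPM with siL2, and 13.2 and 12.1 CPM in siControl. For all 3 the siL2 libraries were the lowest, and for STMN3 and MAPT the siL1 libraries were the highest.

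TUBB3 fell by 0.27 with siL2 (SE 0.0485, edgeR adjusted p = 0.000572) and STMN3 by 0.22 (SE 0.0524, edgeR adjusted p = 0.00447). With siL1 the log2 fold changes were 0.04 for TUBB3 (edgeR adjusted p = 0.570) and 0.06 for STMN3 (edgeR adjusted p = 0.332). MAPT rose by 0.30 with siL1 (SE 0.0973, edgeR adjusted p = 0.0213), and its log2 fold change with siL2 was -0.20 (edgeR adjusted p = 0.130). The rise of MAPT ended without siL1 replicate 1 (edgeR adjusted p = 0.116) or siControl replicate 2 (0.145). In siL2 against siL1 the log2 differences were -0.30 for TUBB3, -0.28 for STMN3 and -0.50 for MAPT, with edgeR adjusted p of 0.000223, 0.000728 and 0.00108. TUBB3 shares sequence with other beta-tubulin genes and is joined to MC1R by readthrough transcripts, so its count may hold reads of other genes.

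**Figure D2:**
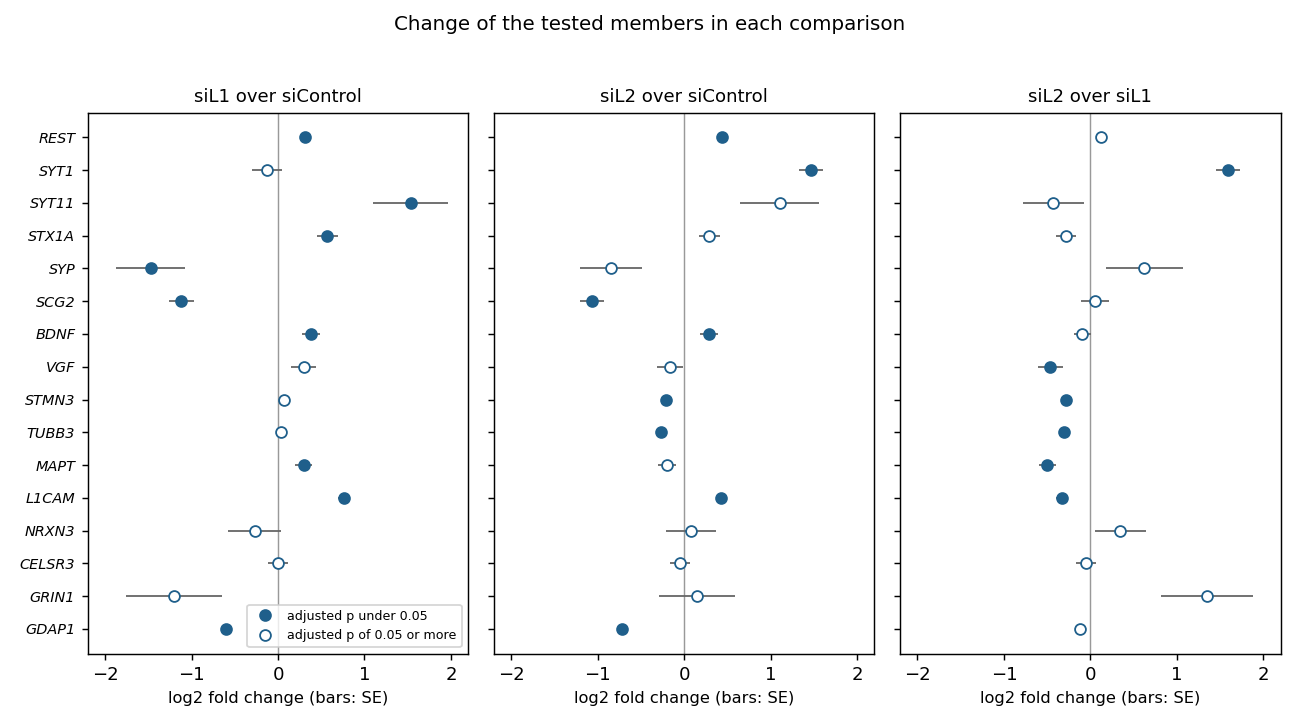
Log2 fold changes of the 16 tested members in siL1 over siControl, siL2 over siControl and siL2 over siL1 (points, with SE as bars). Filled points passed an edgeR adjusted p of 0.05. SYT1 has the largest difference between the siRNAs (1.59), and TUBB3, STMN3 and MAPT all lie left of 0 in the third panel.

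At the cell surface, L1CAM rose with each siRNA. L1CAM encodes an immunoglobulin-type adhesion molecule of axons. It had 36.4 and 37.4 CPM with siL1, 29.6 and 28.97 CPM with siL2, and 21.4 and 22.04 CPM in siControl. The 3 groups were separate, with siL1 the highest. The log2 fold change was 0.76 with siL1 (SE 0.0672, edgeR adjusted p = 1.37e-06) and 0.43 with siL2 (SE 0.0682, edgeR adjusted p = 0.000213), and siL2 was lower than siL1 by -0.33 (SE 0.0639, edgeR adjusted p = 0.000926).

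The other 2 tested surface genes overlapped siControl with either siRNA and passed in no comparison. CELSR3, a cadherin with a receptor tail that guides axon tracts, had 10.9 and 10.1 CPM with siL1, 10.9 and 9.33 CPM with siL2, and 10.99 and 10.03 CPM in siControl. Its log2 fold changes were -0.0046 with siL1 (SE 0.116) and -0.05 with siL2 (SE 0.115). NRXN3, a presynaptic neurexin, had 24 and 36 counts with siL1, 44 and 38 with siL2, and 24 and 45 in siControl, and its log2 fold changes carried SEs of 0.304 and 0.286.

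GRIN1, which encodes the obligatory subunit of the NMDA receptor, was the one tested gene among 5 channel and receptor genes. It had 2 and 7 counts with siL1, 14 and 11 with siL2, and 9 and 11 in siControl. In siL2 against siL1 the log2 difference was 1.35 (SE 0.530, edgeR adjusted p = 0.0527). The siL1 libraries were the lowest, but the log2 fold change of -1.20 had an SE of 0.555 (edgeR adjusted p = 0.0897). With another test, limma-voom, the siL1 value was -1.34 and passed (limma-voom adjusted p = 0.0443). Without siL1 replicate 2 it was -2.30 and passed (edgeR adjusted p = 0.0368), leaving 2 counts in the remaining siL1 library.

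GDAP1, which encodes a protein of the outer mitochondrial membrane that is mutated in a hereditary neuropathy, fell with each siRNA. It had 41.9 and 41.4 CPM with siL1, 38.5 and 38.5 CPM with siL2, and 62.0 and 64.5 CPM in siControl. The 4 LSD1 siRNA libraries were all far below the siControl libraries. GDAP1 fell by 0.60 with siL1 (SE 0.0555, edgeR adjusted p = 2.03e-06) and by 0.72 with siL2 (SE 0.0556, edgeR adjusted p = 4.88e-07). The difference between the siRNAs, -0.12, did not pass (edgeR adjusted p = 0.118).

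In siL2 against siL1, 1 of the 16 members was higher and 5 were lower, 37.5% in all, beside 46.8% of all genes tested (23.2% higher and 23.7% lower). The higher one was SYT1, and the lower ones were VGF, STMN3, TUBB3, MAPT and L1CAM. Without siL1 replicate 2 there were 2 higher ones, GRIN1 being the second. The authors' deposited table, made with another test, had 4 members higher and 3 lower with siL1 and 3 higher and 4 lower with siL2 at an adjusted p under 0.05, all of them among the calls given here. The authors' deposited table had adjusted p of 0.113 for SYT11 and 0.0754 for MAPT with siL1, and of 0.382 for BDNF with siL2.

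The 18 members that did not pass the filter held few reads in any group. Summed over the 18, there were 24 and 39 counts with siL1, 18 and 20 with siL2, and 17 and 20 in siControl. In these 6 libraries 8, 10, 8, 7, 7 and 7 of the 18 had a count. The higher sum of the siL1 libraries came largely from SCN2A, which encodes a neuronal sodium channel, with 9 and 18 counts with siL1, 2 and 3 with siL2, and 4 and 5 in siControl. The siL1 libraries were the highest for SCN2A. In the fit without a filter its log2 fold change was 1.48 with siL1 (edgeR adjusted p = 0.0477) and -0.99 with siL2 (edgeR adjusted p = 0.447). The log2 difference of siL2 against siL1 was -2.47 (edgeR adjusted p = 0.00285). For SCN2A the authors' deposited table, made with another test, had adjusted p of 0.197 with siL1 and 0.816 with siL2. Over all 10046 genes below the filter, 25.8% and 27.3% had a count in the siL1 libraries, 26.4% and 26.1% in the siL2 libraries, and 22.95% and 24.05% in the siControl libraries.

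Of the set, 7 genes had no reads. At 0 counts in all 6 libraries were SYT4, STMN2, the neurofilament genes NEFL and NEFM, the internexin gene INA, the sodium channel subunit gene SCN3B and NTRK3, the receptor of neurotrophin-3. The axon growth protein gene GAP43 had 1 count in 1 siL1 library. SNAP25, the partner of syntaxin in the SNARE complex, had 0 and 2 counts with siL1, 3 and 1 with siL2, and 1 and 0 in siControl. The granin gene CHGA had 2 and 1 counts with siL1, 2 and 0 with siL2, and 0 and 2 in siControl. These counts lie within 3, so a fall, or a rise that stays within 3 counts, was not detectable at this depth.

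Similar low counts held for the rest. SYN1, which encodes the vesicle-tethering phosphoprotein synapsin I, had 2 and 3 counts with siL1, 1 and 2 with siL2, and 1 and 0 in siControl. NRXN2 had 2 and 3 counts with siL1, 0 and 2 with siL2, and 0 in both siControl libraries. CHGB had 0 and 1 counts with siL1, 0 in both siL2 libraries, and 2 and 1 in siControl, and NEFH had 2 and 0, 2 and 0, and 2 and 1 in the same order of groups. The complexin gene CPLX1 had 3 and 3 counts with siL1, 1 and 3 with siL2, and 5 and 5 in siControl. The sodium channel gene SCN3A had 3 and 1, 4 and 6, and 2 and 2, and RUNDC3A had 1 and 6, 3 and 3, and 0 and 4, again in that order. Of the 11 genes below the filter that had a count, SCN2A alone passed in the fit without a filter, with siL1 and in siL2 against siL1.

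**Figure D3:**
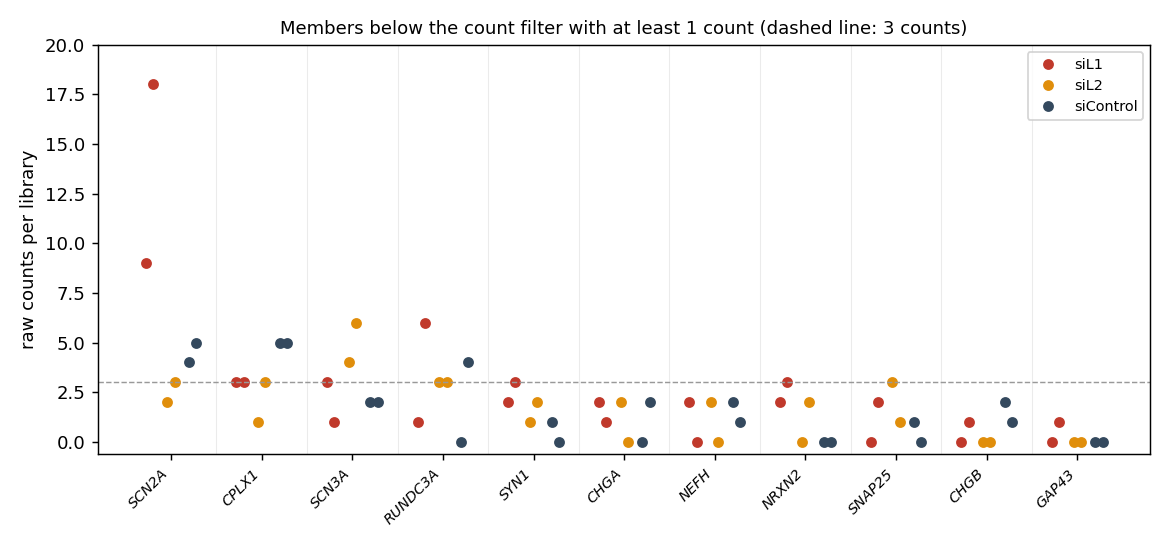
Raw counts in each library of the 11 members below the count filter that had at least 1 count; the dashed line marks 3 counts. Apart from SCN2A, with 9 and 18 counts in the siL1 libraries, no library exceeds 6 counts.

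The RE1 element, to which REST binds, was looked for in the promoters of the members. RefSeq promoter windows on GRCh38.p14, 250 bases before to 50 after a gene's start, were at hand for 19 of the 34 members, 29 windows in all because a gene can have several starts. The element has a left arm, searched as CAGCACC, and a right arm, searched as GGACAG, which in the complete core stand 2 bases apart; both strands were searched and the arms do not overlap. The left arm was in 7.75% of all 35116 promoter windows, the right arm in 20.5% and the complete core in 0.0513%. Of the 29 member windows, 5 held the left arm, 11 the right arm and 1, that of SYN1, the complete core. The left arm was also in windows of CELSR3, L1CAM, NRXN3 and SYT4, and the right arm in windows of BDNF, CELSR3, GAP43, INA, NRXN3, NTRK3, REST, SYT1, TUBB3 and VGF. A window without a match says only that these letters are not in it, since RE1 elements often lie inside genes or far from the start. The stretch around the match is shown for the gene with the complete core and for 2 genes with a left arm but no complete core. Of these 2, L1CAM rose, and CELSR3, which also had a right arm in its windows, had no call. Each stretch is in the direction of the gene, with the matched bases in capitals.
SYN1, chrX:47620044-47620107, minus strand, complete core on the gene's strand: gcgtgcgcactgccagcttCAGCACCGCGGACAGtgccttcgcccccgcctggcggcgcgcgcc
L1CAM, chrX:153876187-153876253, minus strand, left arm on the opposite strand: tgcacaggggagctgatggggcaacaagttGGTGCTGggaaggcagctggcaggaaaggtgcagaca
CELSR3, chr3:48662996-48663062, minus strand, left arm on the gene's strand: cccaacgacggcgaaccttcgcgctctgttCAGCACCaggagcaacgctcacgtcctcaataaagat

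The SYN1 core ends 217 bases before the start of the gene, the L1CAM match 203 bases and the CELSR3 match 140 bases before it. SYN1, with the complete core, stayed at 0 to 3 counts, L1CAM rose with each siRNA and CELSR3 passed in neither comparison. Over the 35116 promoter windows searched, the complete core was in windows of 16 genes, of which 14 were in the table. This is not a count over the whole genome, and 15 of the 34 members had no window. Over all 23368 genes, 5745 had no count in any library and 10046 did not pass the filter. Of the 14 genes with the complete core, 6 had no count in any library. No library was over 3 counts for 10 of the 14, a limit other than the filter that was not counted over all genes. UCN, which encodes the peptide urocortin, was the one that passed the filter, with 12 and 11 counts with siL1, 10 and 18 with siL2, and 9 and 6 in siControl; its log2 fold change was 0.54 with siL1 (edgeR adjusted p = 0.389) and 0.72 with siL2 (edgeR adjusted p = 0.237).

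Genes of the corepressor complexes and regulators of REST were taken from a list of 37 in the table, of which 34 were tested. With siL1, 4 rose and 19 fell, KDM1A included, 67.6% in all, beside 50.4% of all genes tested (24.7% higher and 25.7% lower). With siL2, 3 rose and 9 fell, 35.3% in all, beside 45.8% of all genes (22.6% higher and 23.3% lower). The median log2 fold change was -0.17 with siL1 and -0.07 with siL2. Without siL1 replicate 2 the number that fell with siL1 was 12 in place of 19.

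The CoREST scaffold gene RCOR1 had 170 and 169 CPM with siL1, 118 and 111 CPM with siL2, and 161 and 160 CPM in siControl. The siL2 libraries were the lowest by far. RCOR1 fell by 0.49 with siL2 (edgeR adjusted p = 1.59e-06), and its log2 fold change with siL1 was 0.08 (edgeR adjusted p = 0.153). In siL2 against siL1 the log2 difference was -0.56. Its paralog RCOR3 fell by 0.22 with siL1 (edgeR adjusted p = 0.0173) and had a log2 fold change of -0.06 with siL2 (edgeR adjusted p = 0.481), and RCOR2 stayed below the filter.

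The deacetylase gene HDAC1 had 183 and 196 CPM with siL1, 175 and 169 CPM with siL2, and 146 and 149 CPM in siControl. HDAC2 had 336 and 343 CPM with siL1, 334 and 333 CPM with siL2, and 386 and 390 CPM in siControl. The pair thus moved in opposite directions with each siRNA, HDAC1 higher (log2 fold change 0.36 and 0.22) and HDAC2 lower (-0.19 and -0.22). SMARCA4, the ATPase of the SWI/SNF remodeller, fell by 0.55 and 0.25, and CDYL, a chromodomain corepressor, by 0.48 and 0.16. PRICKLE1, which binds REST and affects its entry to the nucleus, fell by 0.56 with siL1 (log2 fold change with siL2 -0.20, not past the threshold), whereas the zinc-finger gene ZMYM2 rose by 0.37 with siL1 (with siL2 0.03, not past). CTBP1, a corepressor that binds nucleotide cofactors, fell by 0.26 with siL2 (with siL1 -0.0070, not past). The phosphatase gene CTDSP1, whose product acts on REST, rose by 0.37 with siL1 and by 0.35 with siL2. The deubiquitinase gene USP7 fell by 0.22 with siL1 and by 0.20 with siL2.

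**Figure D4:**
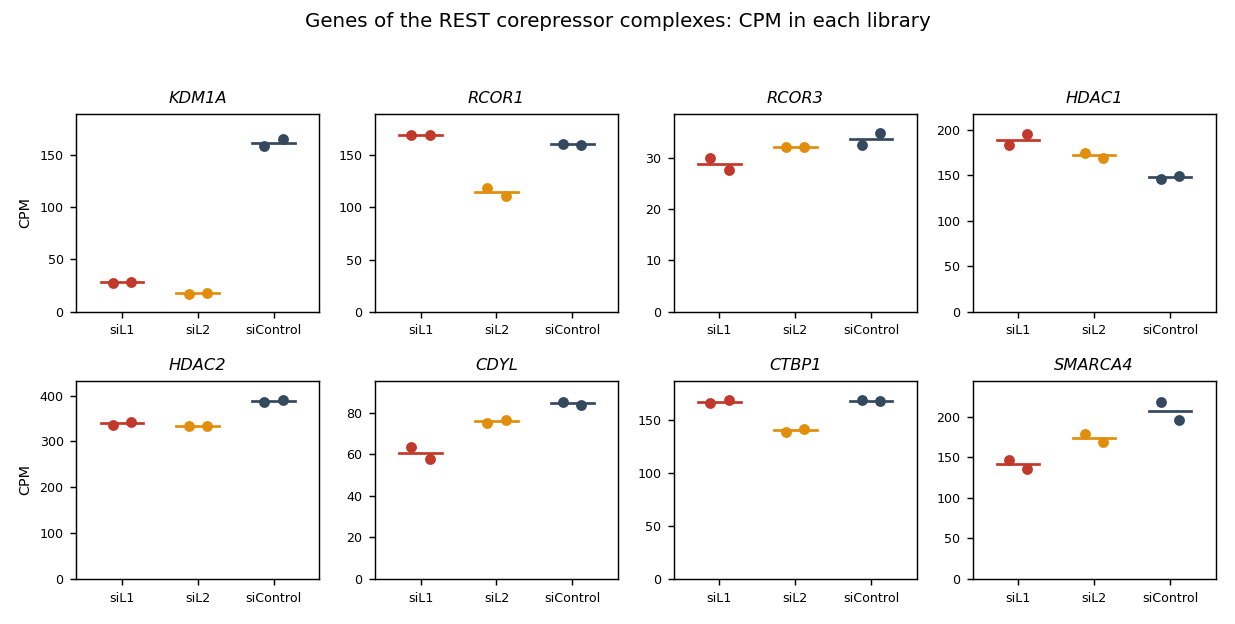
CPM of 8 corepressor genes in each library (points) with group means (lines), for siL1, siL2 and siControl, each panel on its own linear axis from 0. KDM1A is low with both siRNAs, RCOR1 is low in the siL2 libraries only (118 and 111 CPM), and HDAC1 and HDAC2 lie on opposite sides of siControl.

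A second list held 80 other neuronal genes in the table, of which 31 were tested. With siL1, 11 rose and 7 fell (median log2 fold change 0.25), 58.1% in all beside 50.4% of all genes tested. With siL2, 4 rose and 12 fell (median -0.17), 51.6% in all beside 45.8% of all genes. Taken over both directions, these shares are near those of all genes. Among all genes, 24.7% rose and 25.7% fell with siL1, and 22.6% rose and 23.3% fell with siL2. By direction the list was less even than this, and the split was not tested. In siL2 against siL1, 1 was higher and 15 were lower, 51.6% in all beside 46.8% of all genes (23.2% higher and 23.7% lower); the median was -0.36, beside 0.00019 over all genes tested. Of the 80, 19 had no count in any library, as had 5745 of all 23368 genes. The filter was not passed by 49 of the 80, beside 10046 of all genes. No library was over 3 counts for 39 of the 80, a limit that was not counted over all genes. The number that rose with siL1 was 6 without siL1 replicate 2 and 7 without siControl replicate 1, and the number that rose with siL2 was 2 without siL2 replicate 2 or siControl replicate 2.

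DNM1, the dynamin of synaptic vesicle recycling, had 33.3 and 37.8 CPM with siL1, 32.5 and 31.6 CPM with siL2, and 22.02 and 20.6 CPM in siControl, and rose with each siRNA (log2 fold change 0.74 and 0.59). SYNPO, which encodes the actin-associated synaptopodin, rose by 0.86 with siL1 and by 0.42 with siL2. In contrast SCAMP5, a membrane protein of secretory vesicles, had 36.7 and 36.5 CPM with siL1, 36.9 and 35.3 CPM with siL2, and 47.3 and 45.2 CPM in siControl, and fell with each siRNA (-0.34 and -0.36). BSN, which encodes the active zone scaffold bassoon, was at 0.425 and 0.450 CPM with siL1, 0.595 and 0.527 CPM with siL2, and 2.32 and 1.57 CPM in siControl. TMEM198 fell by 1.68 with siL1 and by 2.68 with siL2. TRIM9, a neuronal ubiquitin ligase, fell by 1.27 with siL2 and the adaptor gene APBA2 by 0.41, with log2 fold changes of -0.11 and -0.16 with siL1 that did not pass. RAB3C, a small GTPase of synaptic vesicles, had 1 and 1 counts with siL1, none in either siL2 library, and 11 and 12 in siControl, and fell with each siRNA (edgeR adjusted p = 0.00131 with siL1 and 0.000274 with siL2). Its level with siL1 was 0.0827 of that in siControl (95% exact counting interval 0.00946 to 0.335). With siL2 it was at least 4.32-fold lower, taking 3 counts per library as the floor. MMP24, a membrane-bound metalloproteinase of neurons, went both ways: it fell by 0.86 with siL1 and rose by 0.23 with siL2.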

How the data were processed

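The study sequenced RNA of 6 MDA-MB231 libraries. Per the submitters' processing notes, TopHat 1.3.3, HTSeq and DESeq were used with the build hg19; the annotation and the use of strand are not given in the sources used here. The deposited table held raw counts per gene symbol, not normalized. Its fold changes, linear ratios of siRNA to control, and its adjusted p-values are the authors' own. The 6 count columns were matched to libraries by name.

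Counts were analysed in R 4.3.3 with edgeR 4.0.16. The function filterByExpr kept 13322 genes with 99.97% of the counts and dropped 10046. TMM factors ran from 0.993 to 1.01. The model (glmQLFit) had a term for group alone, used all 6 libraries and left 3 residual degrees of freedom. Tests (glmQLFTest) were two-sided, p-values were adjusted by Benjamini-Hochberg over every gene tested, and the threshold was 0.05. CPM used TMM-scaled library sizes. Replicates of a group differed by more than sampling noise (chi-square per degree of freedom 3.14 to 3.36). The fit was tested on simulated counts with the same spread setting for every gene, so its error rate on the real counts was not measured.

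The members and the gene lists were chosen with earlier results of these data known. Every member is accounted for. Of the corepressor and other neuronal lists, up to 6 genes per list and siRNA with the smallest adjusted p are named. KDM1A, RCOR1, RCOR2, RCOR3, HDAC1 and HDAC2 are named in any case. Outside this rule, cell type markers, UCN, genes that overlap members and neighbours of members are named, some after their values were seen. Promoters came from RefSeq on GRCh38.p14 and were joined by symbol. Of 38 corepressor symbols listed, 1 (GSE1) was not matched. Genes taken out of the lists afterwards are not reported here. Alternatives were DESeq2 1.42.0 size factors and Wald test, upper quartile scaling, other filters, limma-voom (limma 3.58.1), a replicate block, fits of only the groups compared, and each library left out. Scans and figures used Python 3.11.15, pandas 2.3.3 and matplotlib 3.10.9.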

Additional observations from a re-analysis of the deposited data

Results flagged for a closer look

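Members are given here whose response to siL2 differed from that to siL1, as tested directly by siL2 against siL1 with edgeR's quasi-likelihood test. SYT1 was higher with siL2 (log2 difference 1.59, both siL2 libraries above both siL1 libraries). MAPT was lower with siL2 (-0.50), as were VGF (-0.46), L1CAM (-0.33), TUBB3 (-0.30) and STMN3 (-0.28), each with both siL2 libraries below both siL1 libraries. L1CAM was above siControl with either siRNA, so that its difference is one of size.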

How the results depend on the processing

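Of 48 log2 fold changes, those of the 16 tested members in 3 comparisons, all kept direction and side of the threshold with DESeq2's size factors and with upper quartile scaling. None of those that passed in either fit changed sign under any alternative run. DESeq2's Wald test ended 5 calls, with siL1 those of SYP (adjusted p = 0.0527), SYT11 (0.104) and MAPT (0.0894), with siL2 that of BDNF (0.0525), and in siL2 against siL1 that of VGF (0.146). Without a filter 3 more values passed, SYP and STX1A with siL2 (edgeR adjusted p = 0.0452 and 0.0291) and STX1A in siL2 against siL1 (0.0241). The setting with at least 1 CPM in 2 libraries left 39 of the 48. Without 1 library, the members higher with siL1 numbered 3 to 7. Members higher in siL2 against siL1 numbered 2 with limma-voom and 1 to 2 without 1 library. Other neuronal genes higher with siL1 numbered 5 with DESeq2's Wald test and 6 to 10 without 1 library, and those higher with siL2 numbered 2 with the Wald test and 2 to 4 without 1 library. Corepressor genes lower with siL1 numbered 12 to 18 without 1 library. Where a library is left out, the lone remaining library of its group is assumed to vary like the others. Same-numbered libraries had correlated deviations (0.141, 0.198 and 0.133), but the labels do not say that a number marks a shared batch, and with 2 numbers per group the libraries were not taken as paired. With the replicate number as a block, members higher in siL2 against siL1 numbered 3, corepressor genes higher with siL2 numbered 5 and those higher in siL2 against siL1 14; 5 further member values passed and 0 were lost. Those that passed were STX1A and SYP with siL2 (edgeR adjusted p = 0.00177 and 0.0251), and REST, STX1A and GRIN1 in siL2 against siL1 (0.0119, 0.00133 and 0.0313). Genes with a few counts are limited by depth, and a call of SYT11, SYP or GRIN1 rests on at most 36 counts in a library.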

Other observations

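RBFOX3, the gene of the neuronal nuclear antigen NeuN, was expressed in this line and rose with siL1. It had 17.5 and 20.3 CPM with siL1, 11.3 and 14.6 CPM with siL2, and 10.3 and 11.8 CPM in siControl (log2 fold change 0.78 with siL1, edgeR adjusted p = 0.000271, and 0.23 with siL2, edgeR adjusted p = 0.186). The siL2 libraries overlapped siControl. GAD1, which makes the transmitter GABA, fell by 0.45 with siL1 (edgeR adjusted p = 0.00433), and the dendritic gene MAP2 rose by 0.71 with siL2 (edgeR adjusted p = 0.00794). These genes were singled out after their values were seen.

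The nearest protein-coding genes on either side of the 16 tested members, by RefSeq order, gave 24 tested neighbours. With siL1, 6 of these were higher and 5 lower, 45.8% in all beside 50.4% of all genes tested. With siL2, 5 were higher and 4 lower, 37.5% in all beside 45.8% of all genes. Neither share is above that of all genes, so the counts are no result about the neighbours. JPH1, the neighbour of GDAP1, had 275 and 319 counts with siL1, 305 and 305 with siL2, and 572 and 561 in siControl, and fell by 1.01 with siL1 and by 1.07 with siL2. RIT1, the neighbour of SYT11, rose by 0.75 and 1.08. DEF8, next to TUBB3, fell by 0.60 with siL2 and had a log2 fold change of -0.06 with siL1. AP1S3, next to SCG2, rose by 0.47 and 0.42 while SCG2 fell. These neighbours were named after their values were seen.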
